A study of Homo sapiens with 24 samples.

Results

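The comparison asked which genes CID661578 and cercosporamide, 2 compounds directed at MNK kinases, placed differently on polysomes in PANC-1 cells. For each compound the polysome-associated RNA was taken relative to the total RNA, and the CID661578 value was set against the cercosporamide value, paired by replicates 1 to 4. The members were chosen by column and by count: 16 of the 24 libraries of the series, and the 12144 of 54583 genes that had no count of 0 in those 16. The 8 DMSO libraries were not used in the comparison and are given only as a reference level, with no test.

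PANC-1 is an established human cell line of pancreatic ductal adenocarcinoma. Plates of these cells received 40 µM CID661578, 5 µM cercosporamide or DMSO for 6 h, in 4 replicates each. From the lysate of every plate the study sequenced total cytosolic RNA and the pooled gradient fractions in which an mRNA carries more than 3 ribosomes, as Smart-seq2 libraries. The labels call both compounds MNK2 inhibitors. In the kinase assays of the study cercosporamide inhibited MNK2, and MNK1 and JAK3 in part, while CID661578 left these activities unchanged. The paper proposes that CID661578 instead keeps MNK2 from binding eIF4G. The doses differ, so compound and dose cannot be told apart, and all plates are cultures of a single line.

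MNK kinases dock on the scaffold eIF4G and phosphorylate eIF4E, the protein that holds the cap of an mRNA. Together with the helicase eIF4A these proteins form eIF4F, which brings mRNAs to the small ribosomal subunit at the start of translation. A gradient sorts mRNAs by the number of ribosomes they carry, not by ribosomes per unit of length.

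Of the 16 libraries, 15 held between 9378714 and 12184749 reads on genes, and the polysome library of cercosporamide replicate 4 held 1592459. In that library 41296 of the 54583 genes had no read. The DMSO libraries held between 9268041 and 11602534 reads. Reads on mitochondrial genes made up 2.84%, 3.56%, 3.96% and 2.94% of the CID661578 polysome libraries and 1.71%, 1.87%, 1.18% and 0.866% of the cercosporamide polysome libraries, for replicates 1 to 4. The shares were lower in each cercosporamide library than in any CID661578 library. For the smallest library the share of 0.866% had a 95% Wilson interval of 0.8514% to 0.8801%, and the reads carry no molecular identifiers, so intervals and floors here cover counting error only. Every value is relative to the other genes of a library, and in bulk RNA fewer cells with a transcript and less of it per cell cannot be told apart.

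Epithelial keratin genes and the mesenchymal filament gene VIM were abundant. In total RNA the keratin KRT8 had a median of 5070 CPM (reads of a gene scaled to a common library size) over the libraries, KRT18 2780, KRT19 1600 and VIM 848. The duct gene CFTR had no read in any library, which allows up to 0.32 CPM in the smallest total RNA library of the 2 compounds, and CDH1 and FN1 had medians of 0. Over 18 markers of acinar, endocrine, immune, endothelial and fibroblast cells the summed level was between 1.28 and 7.16 CPM in the 16 libraries. The marker with the highest level, the fibroblast collagen gene COL1A1, had a median of 2.51 CPM, and INS, PTPRC and CDH5 had no read.

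Polysome-associated RNA relative to total RNA split the genes in both directions in near equal numbers. Genes called higher on polysomes with CID661578 made up 30.6% of ribosomal proteins, 40% of respiratory chain subunits and 60% of small nucleolar RNA host genes. They made up 22.4% of long noncoding RNAs, against 7.32% of all genes. Genes called higher with cercosporamide made up 54.8% of heat shock proteins, 35.3% of ribosome biogenesis factors and 36.1% of mitosis genes. They made up 23.5% of DNA repair genes, against 7.18% of all genes, and included 5 mRNAs of the mitochondrial genome. With the trend along coding length removed, 1 of 85 ribosomal proteins and 0 of 80 respiratory chain subunits were called higher with CID661578. Higher with cercosporamide were then 8 of 31 heat shock proteins, 10 of 85 biogenesis factors, 8 of 61 mitosis genes and 7 of 51 repair genes. That fit called 264 and 270 of the 12144 genes. The value compared is the TE difference: the log2 of polysome over total RNA with CID661578 minus the same with cercosporamide, so that a positive number is higher with CID661578. A gene counted as called when its Benjamini-Hochberg adjusted p in the edgeR quasi-likelihood fit over the 12144 genes was below 0.15 and its difference was over 1.2-fold, or 0.263 on the log2 scale.

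By this rule 889 genes (7.32% of those tested) were called higher with CID661578 and 872 (7.18%) higher with cercosporamide, together 1761 (14.5%), with 2583 genes at an unadjusted p under 0.05. The median TE difference over all genes was -0.02. In the 889 genes the median log2 ratio of polysome over total was -1.01, -0.67, -1.08 and -1.11 with CID661578 in replicates 1 to 4, -2.12, -1.73, -1.82 and -1.85 with cercosporamide and -1.24, -0.89, -1.11 and -1.2 with DMSO. In the 872 genes it was 0.36, 0.10, 0.58 and 0.58 with CID661578, 1.42, 1.26, 1.25 and 1.55 with cercosporamide and 0.33, -0.18, 0.13 and 0.34 with DMSO. The CID661578 plates lay near the DMSO plates in both groups of genes, and the cercosporamide plates lay apart from them. These groups were chosen by the call, so that their separation is a description. All 4 pairs had the same sign for 771 of the 889 genes and for 723 of the 872.

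The ratios were also spread more widely with cercosporamide. Across the 12144 genes the SD of the log2 ratio was 1.27, 1.14, 1.23 and 1.32 in the 4 cercosporamide plates, 0.90, 0.87, 0.93 and 1.00 in the CID661578 plates and 0.88, 0.88, 0.89 and 0.95 in the DMSO plates. Every cercosporamide plate was above every CID661578 and DMSO plate, a difference that was not tested. The median ratio over all genes was 0.05 ± 0.07 (SD, n = 4) with CID661578, 0.14 ± 0.09 with cercosporamide and -0.03 ± 0.04 with DMSO.

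The number called depended on the replicates and on the model. Without replicate 2 the counts higher with CID661578 and with cercosporamide were 218 and 175, and without replicate 1 they were 575 and 324. Without replicate 4, which holds the library of 1592459 reads, they were 679 and 625. With no replicate block they were 516 and 489. edgeR with neither plate nor replicate terms called 0 and 0, with 739 and 590 genes at an unadjusted p under 0.05. Analysis of partial variance, a regression of polysome on total RNA written here in limma and not the program of the study, from which it may differ, called 0 and 0, with 1004 and 1131. Beside these, DESeq2 called 1129 and 726 and limma voom 1349 and 1368. The balance moved with the scaling, the filter and the replicates. Genes higher with CID661578 were 50.5% of those called with TMM and 62.2% with DESeq2 size factors in edgeR. They were 60.5% with no filter and 64% without replicate 1. DESeq2, which changed scaling and model at once, gave 60.9%, and limma voom gave 49.7%. The fit with no filter took in 26775 genes with a median TE difference of 0.10, which was 0.02 over the 12144. Under each alternative of this paragraph all 1761 genes kept their sign, save under partial variance, where 1687 did.

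Differences were present in both fractions, and the polysome fraction carried more of the calls. In polysome-associated RNA 3148 genes (25.9%) were called between the compounds, 1440 (11.9%) higher with CID661578 and 1708 (14.1%) higher with cercosporamide. In total RNA 54 genes (0.445%) were called, 32 (0.264%) higher with CID661578 and 22 (0.181%) higher with cercosporamide, with 977 at an unadjusted p under 0.05. Of the 889 genes 703 were also called in polysome RNA in the same direction and not in total RNA, and of the 872 genes 632 were. The median difference of the 889 was 0.65 in polysome RNA and -0.30 in total RNA. For the 872 it was -0.59 and 0.35. A total RNA difference of opposite sign therefore stood beside the polysome difference in both groups. Total RNA enters the TE difference with a minus sign, so the choice of genes by the call favours this pattern. The polysome count was 163 with no replicate block and 1580 without replicate 2. Its balance turned with the scaling and the replicates. The counts, CID661578 first, were 1675 and 1388 with DESeq2 size factors in edgeR and 1747 and 1309 when normalized without mitochondrial genes. They were 1217 and 892 without replicate 1 and 863 and 717 without replicate 2. With DESeq2 they were 1214 and 1527 and with limma voom 1551 and 1896, the direction of the main fit. The total RNA count was 2 with no replicate block, 84, 23, 153 and 18 without replicates 1, 2, 3 and 4, and 161 with DESeq2.

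The gene property that went furthest with the TE difference was the length of the coding sequence. Genes called higher with CID661578 had a median coding length of 465 bases, those called higher with cercosporamide 1974 and all tested genes 1386. The genes were split into 10 groups of equal size by coding length. In group 1, of 78 to 528 bases, 385 of 1013 genes were called higher with CID661578 and 1 with cercosporamide. There the median log2 ratio was -0.88 with CID661578, -1.43 with cercosporamide and -1.01 with DMSO. In group 8, of 1992 to 2499 bases, 10 were called higher with CID661578 and 164 with cercosporamide, and the medians were 0.40, 0.77 and 0.35. The climb of the ratio with coding length was thus present in all 3 treatments and was steepest with cercosporamide, with no test of the slopes. Across 10128 genes, which are not independent replicates, the Spearman correlation of coding length with the TE difference was -0.45.

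Other features differed as well. GC content of the coding sequence was 52.8% in genes called higher with CID661578, 42.7% in those called higher with cercosporamide and 51.2% over all, as medians. The 5′ UTR was 86, 123 and 130 bases long with a GC content of 68.2%, 62.5% and 67.5%. The 3′ UTR was 800, 1550 and 1339 bases long and held 1, 5 and 2 copies of the pentamer ATTTA. Correlations with the TE difference across genes were 0.27 for coding GC, -0.05 for 5′ UTR length, 0.23 for 3′ UTR GC and -0.18 for the pentamer. An alternative chosen after seeing the data removed the trend of each library along coding length. It called 264 and 270 genes, of which 241 and 238 were among the 889 and the 872. Removal of the trend along GC content called 1378 and 1059. Whether coding length, GC content or membership of a class carries a difference cannot be told apart from these features alone, so lists of coding genes are given with and without the coding length trend. List counts without that trend stand against 264 and 270 calls over 12144 genes, fewer than in the main fit. Counts with a replicate left out stand against the all-gene counts of that fit, such as 218 and 175 without replicate 2.

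Cytosolic ribosomal proteins, the protein part of the ribosome, had a higher median on polysomes with CID661578, and 30.6% of those tested were called. Their median log2 ratio was -0.84, -0.55, -0.90 and -0.85 with CID661578 in replicates 1 to 4, -1.72, -0.93, -1.12 and -0.86 with cercosporamide and -0.58 ± 0.10 (SD, n = 4) with DMSO. The cercosporamide values lay below those of CID661578 in each pair, with overlap between replicates. Of 87 listed genes 85 were tested, 26 were called higher with CID661578 and 0 with cercosporamide (0 at an unadjusted p under 0.05 in edgeR, 0 called by DESeq2), and the median TE difference was 0.44. All genes together had 7.32% and 7.18% called and a median of -0.02. With the coding length trend removed, 1 and 1 ribosomal protein genes were called and the median was 0.01. For these genes the called counts, CID661578 first, were 9 and 0 without replicate 2 and 41 and 1 without the GC trend.

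RPLP1, a protein of the stalk of the large subunit (chromosome 15, positions 69452818 to 69456205 of GRCh38), was the member with the largest difference. Its log2 ratio was -1.12, -1.33, -1.62 and -2.14 with CID661578, -2.84, -2.48, -3.01 and -2.92 with cercosporamide and -1.19 ± 0.25 with DMSO. The plates of the compounds did not overlap, and DMSO lay with CID661578. The TE difference of RPLP1 was 1.26 ± 0.26 (SE), with an adjusted p of 0.0121 and a positive sign in 4 of 4 pairs. For RPS16, the called member with the highest CPM, the ratios were -0.28, -0.37, -0.78 and -0.82 with CID661578 and -1.77, -1.24, -2.08 and -0.83 with cercosporamide, and the TE difference was 0.92 ± 0.33 (adjusted p 0.1, 4 of 4 pairs). The plates were closest in replicate 4, at -0.82 with CID661578 and -0.83 with cercosporamide. Very short members, named after their values were seen, included RPS29 at 0.77 ± 0.26 (adjusted p 0.0877, 4 of 4 pairs) and RPL41 at 0.86 ± 0.27 (adjusted p 0.0653, 4 of 4 pairs). With the coding length trend removed, RPS29 was at -0.18 and RPL41 at -0.44.

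Messages of ribosomal proteins are known for a run of pyrimidines at the very start of transcription. A run of at least 8 pyrimidines that opens with C between 5 bases before and 5 bases after the annotated start was searched on the strand of the gene. It was present at 5.36% of 27305 promoters, at 6.27% of the 8582 tested genes with a promoter entry, and at 43 of 68 ribosomal protein genes (63.2%). Among genes called higher with CID661578 6.77% held a run and among those called higher with cercosporamide 6.3%. Ribosomal protein genes with a run had a median TE difference of 0.50 and those without 0.45. These medians lie close together. A member without a match may still hold a run at a start other than the annotated one. The split therefore cannot set members with a run apart from members without any. Start sites are shown for RPS27 and RPS21, which were called higher with CID661578, RPL39, which was not called, and NPM1, a nucleolar chaperone called higher with cercosporamide. The capitals mark the run in RefSeq sequence of GRCh38.p14, 5′ to 3′: RPS27 at chr1:153990754-153990779 on the plus strand, RPS21 at chr20:62387095-62387120 on the plus strand, RPL39 at chrX:119791613-119791638 on the minus strand and NPM1 at chr5:171387841-171387866 on the plus strand. The run of RPL39 is 22 bases long and goes on past the end of the window shown.
RPS27: ctttcgCTCCTTTCCggcggtgacga
RPS21: agctgCTTCCTTTCTCTCTCgcgcgc
RPL39: gccagCTTCCCTCCTCTTCCTTTCTC
NPM1: cctgcgtCCTTTCCCTggtgtgattc
The log2 ratios of RPS27 were -2.31, -2.20, -2.36 and -2.66 with CID661578 and -3.81, -3.19, -2.88 and -3.38 with cercosporamide, a TE difference of 0.94 ± 0.26 (adjusted p 0.042, 4 of 4 pairs). RPS21 had a TE difference of 0.97 ± 0.28 (adjusted p 0.0468, 3 of 4 pairs), and RPL39, at 0.50 ± 0.27, was not called (adjusted p 0.294, 4 of 4 pairs). NPM1 went the other way, with ratios of 0.40, -0.01, 0.21 and 0.32 with CID661578 and 1.01, 0.94, 0.91 and 0.94 with cercosporamide and a TE difference of -0.72 ± 0.25 (adjusted p 0.1, negative in 4 of 4 pairs). A match is a description of the annotated start and not a sign of use.

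Of the eIF4F, MNK and 4E-BP genes, which include the MNK kinases the compounds are directed at, 15 of 18 were tested. Called higher with CID661578 were 2 (13.3%, against 7.32% of all genes) and higher with cercosporamide 1 (6.67%, against 7.18%). The list median was -0.03, and it kept its sign under 8 of the 18 alternatives. EIF4EBP1, the repressor that binds eIF4E and blocks eIF4G, had log2 ratios of -0.70, -0.63, -1.24 and -0.96 with CID661578, -2.11, -2.02, -1.64 and -1.95 with cercosporamide and -1.25 ± 0.76 with DMSO. The 2 compounds did not overlap. Its TE difference was 1.05 ± 0.25 (adjusted p 0.0216, 4 of 4 pairs). EIF4EBP2, a related repressor, stood at 1.13 ± 0.39 (adjusted p 0.089, 4 of 4 pairs) and at -0.10 with partial variance. EIF4B, a cofactor of the helicase eIF4A, had ratios of 0.25, 0.31, 0.68 and 0.34 with CID661578 and 1.38, 1.46, 0.83 and 1.63 with cercosporamide. These did not overlap either, and the TE difference was -0.94 ± 0.26 (adjusted p 0.0373, negative in 4 of 4 pairs). The list had 0 and 0 (median 0.18) called with the coding length trend removed. For this list the called counts, CID661578 first, were 1 and 0 without replicate 1, 1 and 0 without replicate 2, 3 and 2 without replicate 3 and 1 and 1 with no block.

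The MNK genes and the other tested parts of eIF4F were not called by edgeR, and EIF4A1, EIF4E3 and EIF4EBP3 did not pass the filter. MKNK1 had a TE difference of 0.44 ± 0.29 (adjusted p 0.423, 4 of 4 pairs) and MKNK2 0.39 ± 0.49 (adjusted p 0.702, 3 of 4 pairs). The cap-binding protein EIF4E was at -0.36 ± 0.23 (adjusted p 0.4, negative in 4 of 4 pairs), and the scaffolds EIF4G1, EIF4G2 and EIF4G3 at -0.12, -0.03 and -0.34. EIF4E2, a cap-binding relative, was at 0.58 ± 0.24 (adjusted p 0.151, 4 of 4 pairs) and was called by DESeq2, and EIF4A2, a helicase, at -0.56 ± 0.24 (adjusted p 0.184, negative in 4 of 4 pairs). The factors EIF4H, EIF4ENIF1, PABPC1 and PDCD4 were at 0.11, 0.24, -0.34 and -0.20. In total RNA edgeR called none of the 15 and DESeq2 1 higher with CID661578 and 1 higher with cercosporamide.

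Initiation and elongation factors outside eIF4F had calls in both directions. Of 46 tested, 7 (15.2%, against 7.18% of all genes) were called higher with cercosporamide and 3 (6.52%, against 7.32%) higher with CID661578. The median of -0.21 kept its sign under all 18 alternatives and was positive in 1 of 4 pairs. EIF2A, an initiation factor, had log2 ratios of 0.26, -0.19, 0.16 and 0.15 with CID661578 and 1.32, 1.2, 0.70 and 1.34 with cercosporamide. The plates did not overlap, and the TE difference was -1.05 ± 0.25 (adjusted p 0.0193, negative in 4 of 4 pairs). EIF5A, a factor that helps ribosomes through stalling stretches, went the other way at 1.31 ± 0.32 (adjusted p 0.0239, 4 of 4 pairs), with a cercosporamide value of -2.96 in replicate 4 against -1.36 to -0.16 in the others. EEF1A1, the member with the highest CPM, was not called at -0.36 ± 0.30 (adjusted p 0.534, 3 of 4 pairs negative). With the coding length trend removed, 0 and 3 of the list were called, with a median of -0.20. For these factors the called counts, CID661578 first, were 1 and 5 without replicate 1, 1 and 1 without replicate 2 and 4 and 11 without the GC trend.

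Nuclear genes for subunits of the respiratory chain and the ATP synthase had a higher median on polysomes with CID661578. Of those tested 40% were called so, against 7.32% of all genes. Their median log2 ratio was -0.85, -0.53, -1.03 and -0.87 with CID661578, -1.75, -1.08, -1.24 and -1.13 with cercosporamide and -0.89 ± 0.15 with DMSO. The cercosporamide value was the lower of the 2 in each replicate. Of 80 tested, 32 were called higher with CID661578 and 2 higher with cercosporamide, CYC1 and NDUFS1, named after their values were seen, and the median TE difference was 0.54. With the coding length trend removed, 0 and 1 were called and the median was 0.07. NDUFB1, an accessory subunit of complex I (chromosome 14, positions 92116123 to 92121706 of GRCh38), had ratios of -2.05, -1.57, -1.84 and -1.75 with CID661578, -3.23, -2.66, -3.13 and -3.64 with cercosporamide and -1.80 ± 0.05 with DMSO. DMSO and CID661578 lay together, apart from cercosporamide. The TE difference of NDUFB1 was 1.35 ± 0.25 (adjusted p 0.00817, 4 of 4 pairs). UQCRQ of complex III was at 1.05 ± 0.27 (adjusted p 0.0307, 4 of 4 pairs) and COX7C of complex IV at 0.98 ± 0.26 (adjusted p 0.0341, 4 of 4 pairs). CYC1, the heme-binding subunit cytochrome c1, was at -0.75 ± 0.30 (adjusted p 0.14, negative in 3 of 4 pairs). ATP5F1B, the catalytic subunit of the ATP synthase, was not called at 0.12 ± 0.29. For respiratory chain genes the called counts, CID661578 first, were 28 and 1 without replicate 1, 8 and 0 without replicate 2, 29 and 1 without replicate 4 and 24 and 1 with no block.

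The machinery that imports proteins into mitochondria had a median in the same direction. Of 28 tested translocase genes, 12 (42.9%, against 7.32% of all genes) were called higher with CID661578 and 1 (3.57%, against 7.18%) with cercosporamide. The median was 0.60. After removal of the coding length trend 0 and 0 were called, with a median of 0.09. The median log2 ratio was -0.51, -0.59, -0.47 and -0.67 with CID661578 and -1.32, -0.87, -1.01 and -0.84 with cercosporamide, lower with cercosporamide in each replicate. TOMM7, a small subunit of the outer membrane translocase, had ratios of -1.57, -0.69, -1.44 and -1.37 with CID661578 and -2.32, -1.61, -2.76 and -1.78 with cercosporamide. These did not overlap, and the TE difference was 0.87 ± 0.25 (adjusted p 0.043, 4 of 4 pairs), or -0.10 with the coding length trend removed. PAM16, part of the import motor of the inner membrane, was at 1.40 ± 0.41 (adjusted p 0.0484, 3 of 4 pairs). The called member on the other side was HSPA9, the chaperone of that motor, at -0.79 ± 0.25 (adjusted p 0.0704, negative in 4 of 4 pairs).

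Mitochondrial ribosomal proteins, of which 79 were tested, had 13 (16.5%, against 7.32% of all genes) called higher with CID661578. Called higher with cercosporamide was 1 (1.27%, against 7.18%), MRPS9. Their median of 0.21 kept its sign under 16 of the 18 alternatives and was -0.04 with the coding length trend removed, when 1 and 3 were called. The medians of the list were -0.04 in polysome RNA and -0.25 in total RNA. MRPS16 had log2 ratios of -0.45, -0.17, -0.84 and -0.87 with CID661578 and -1.85, -1.73, -1.77 and -1.85 with cercosporamide. The plates stood well apart, and the TE difference was 1.22 ± 0.24 (adjusted p 0.0108, 4 of 4 pairs). MRPS9 was at -0.92 ± 0.30 (adjusted p 0.0704, negative in 4 of 4 pairs). Of 35 mitochondrial SLC25 carriers, transporters of the inner membrane, 3 (8.57%, near the 7.32% of all genes) were called higher with CID661578 and 0 with cercosporamide (1 at an unadjusted p under 0.05 in edgeR, 0 called by DESeq2), with a median of 0.25. SLC25 carriers had 0 and 0 (median 0.18) called with the coding length trend removed. For translocases the called counts, CID661578 first, were 9 and 0 without replicate 1 and 1 and 0 without replicate 2. For mitochondrial ribosomal proteins they were 6 and 0 without replicate 1, 2 and 0 without replicate 2 and 7 and 1 with no block. For SLC25 carriers they were 1 and 1 without replicate 1, 0 and 0 without replicate 2, 4 and 2 without the GC trend and 1 and 0 with no block.

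Some messages of the mitochondrial genome itself went the opposite way to the 32 nuclear partners called higher with CID661578. The called partners CYC1 and NDUFS1 went the same way as these messages. The median log2 ratio of the list was -3.65, -4.43, -3.22 and -4.36 with CID661578, -3.20, -3.74, -2.98 and -4.13 with cercosporamide and -1.97 ± 0.53 with DMSO. The compounds overlapped, with the cercosporamide value the higher in each replicate, and both lay below DMSO. Of the 13 mitochondrial mRNAs, 5 (38.5%, against 7.18% of all genes) were called higher with cercosporamide: ND5, CYTB, ND6, COX1 and ATP6. With CID661578 0 were (0 at an unadjusted p under 0.05 in edgeR, 0 called by DESeq2), and the median was -0.46. ND5, a core subunit of complex I, had log2 ratios of -3.65, -4.36, -3.10 and -4.56 with CID661578, -2.25, -2.78, -1.04 and -2.58 with cercosporamide and -1.48 ± 0.81 with DMSO. Every cercosporamide plate was above every CID661578 plate, and the TE difference was -1.76 ± 0.26 (adjusted p 0.00215, negative in 4 of 4 pairs). CYTB of complex III, with ratios of -3.38, -4.43, -3.22 and -3.86 and -1.83, -2.79, -1.39 and -2.38, was at -1.63 ± 0.28 (adjusted p 0.0066, negative in 4 of 4 pairs). ND6 was at -1.54 ± 0.25 (adjusted p 0.00555), COX1 at -0.93 ± 0.27 (adjusted p 0.0491) and ATP6 at -0.87 ± 0.27 (adjusted p 0.0558), each negative in all 4 pairs. The rest were not called: ATP8 at -0.46, COX2 at -0.40, COX3 at -0.62, ND1 at 0.32, ND2 at -0.19, ND3 at -0.10, ND4 at -0.19 and ND4L at -0.10. These mRNAs are translated inside mitochondria, so their reads in the gradient fractions are a measure of position in the gradient and not of cytosolic polysomes. In polysome RNA 11 of the 13 were called higher with cercosporamide (median -1.21), in total RNA 2 (median -0.39). The mitochondrial read share of the polysome libraries went the opposite way. It was lower with cercosporamide, at 1.71%, 1.87%, 1.18% and 0.866% against 2.84%, 3.56%, 3.96% and 2.94% with CID661578. The part of the read share in the result was not tested. After removal of the coding length trend, for which 9 of the 13 had a length, 0 and 6 (median -0.81) were called. For these mRNAs the called counts, CID661578 first, were 0 and 3 without replicate 1 and 0 and 3 without replicate 2. The list median was -0.25 without replicate 1.

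Ribosomal RNA of the mitochondrion went the other way from its mRNAs. RNR2, the large mitochondrial ribosomal RNA, had log2 ratios of -0.99, -1.52, -0.98 and -1.71 with CID661578, -3.24, -2.87, -3.48 and -3.66 with cercosporamide and -1.28 ± 0.65 with DMSO. The compounds were far apart, with a TE difference of 2.01 ± 0.36 (adjusted p 0.00685, 4 of 4 pairs). Nuclear copies of the same sequence, MTRNR2L1, MTRNR2L2, MTRNR2L8, MTRNR2L9 and MTRNR2L12, had TE differences of 2.12, 2.06, 2.11, 2.16 and 1.96. They share reads with RNR2, so they are not separate observations, and the authors removed rRNA reads before alignment. RNR1, the small mitochondrial rRNA, was at 0.78 ± 0.31 (adjusted p 0.142, 4 of 4 pairs).

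Heat shock proteins had a higher median on polysomes with cercosporamide, and 54.8% of those tested were called, against 7.18% of all genes. The median log2 ratio of the heat shock list was 0.26, 0.21, 0.55 and 0.35 with CID661578, 0.98, 0.88, 0.99 and 1.00 with cercosporamide and 0.08 ± 0.28 with DMSO. No CID661578 plate reached a cercosporamide plate. Of 31 tested, 17 were called higher with cercosporamide and 0 with CID661578 (2 at an unadjusted p under 0.05 in edgeR, 2 called by DESeq2), and the median was -0.76. With the coding length trend removed, 1 and 8 were called, against 264 and 270 of all 12144 genes, with a median of -0.47. HSP90B1, the HSP90 of the endoplasmic reticulum (chromosome 12, positions 103930410 to 103947926 of GRCh38), had ratios of 0.26, 0.33, 0.88 and 0.64 with CID661578, 1.89, 1.76, 1.65 and 2.49 with cercosporamide and -0.02 ± 0.41 with DMSO. The plates did not overlap, and the TE difference was -1.42 ± 0.26 (adjusted p 0.0071, negative in 4 of 4 pairs). The cytosolic HSP90AA1 was at -0.80 ± 0.26 (adjusted p 0.0704, 4 of 4 pairs negative) and the cochaperone DNAJA1 at -1.03 ± 0.25 (adjusted p 0.0241, 4 of 4 pairs negative). HSPA1A and HSPA1B, near-identical genes that share reads and are uncertain, were at -0.78 and -0.76. HSPA8, the constitutive HSP70, was lower with CID661578 in both fractions, at -1.68 in polysome and -1.05 in total RNA, and its TE difference of -0.63 ± 0.29 was not called. For heat shock proteins the called counts, CID661578 first, were 0 and 8 without replicate 1, 0 and 5 without replicate 2, 2 and 18 with DESeq2 and 1 and 17 without the GC trend.

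Among 21 chaperones and stress genes of the endoplasmic reticulum, 6 (28.6%, against 7.18% of all genes) were called higher with cercosporamide. With CID661578 0 were (0 at an unadjusted p under 0.05 in edgeR, 0 called by DESeq2), and the median was -0.33. Among the called genes HSP90B1, HSPA5 and DNAJB11 were also counted with the heat shock proteins, so these lists are not separate observations. HSPA9 was counted with both the heat shock proteins and the translocases. The medians of the endoplasmic reticulum list were -0.01 in polysome RNA and 0.49 in total RNA. Its TE difference thus stood beside a total RNA difference more than a polysome difference. HSPA5, the luminal HSP70 called BiP, had log2 ratios of 0.22, -0.08, 0.58 and 0.94 with CID661578 and 1.29, 1.15, 1.2 and 1.99 with cercosporamide. Its TE difference of -0.99 ± 0.26 (adjusted p 0.031, negative in 4 of 4 pairs) went with a total RNA level that was called higher with CID661578, at 0.84, and a polysome difference of -0.15 that was not called. CANX, the lectin chaperone calnexin, was at -1.14 ± 0.25 (adjusted p 0.0158, negative in 4 of 4 pairs). Of the 8 subunits of the cytosolic chaperonin CCT, which folds actin and tubulin, 3 (37.5%, against 7.18% of all genes) were called higher with cercosporamide. With CID661578 0 were (0 at an unadjusted p under 0.05 in edgeR, 0 called by DESeq2), and the median was -0.60. CCT8 had ratios of 0.95, 0.68, 0.38 and 0.84 with CID661578 and 1.95, 1.82, 1.14 and 2.41 with cercosporamide. Its plates did not overlap, and the TE difference was -1.11 ± 0.25 (adjusted p 0.0158, negative in 4 of 4 pairs). With the coding length trend removed 0 and 1 CCT genes (median -0.36) and 0 and 5 of the endoplasmic reticulum list (median -0.28) were called. That fit called 264 and 270 of all 12144 genes. For the endoplasmic reticulum list the called counts, CID661578 first, were 0 and 3 without replicate 2. For CCT they were 0 and 1 without replicate 2, 0 and 6 without replicate 3 and 0 and 6 without the GC trend.

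Ribosome biogenesis factors, which build ribosomes in the nucleolus, had a median opposite in sign to that of the ribosomal proteins they assemble. Their median log2 ratio was 0.53, 0.22, 0.56 and 0.39 with CID661578, 1.17, 0.92, 1.05 and 0.97 with cercosporamide and 0.27 ± 0.16 with DMSO. The cercosporamide plates lay above all CID661578 plates. Of 85 tested, 30 were called higher with cercosporamide and 1, NHP2, higher with CID661578, and the median was -0.53. After removal of the coding length trend 0 and 10 were called, against 264 and 270 of all 12144 genes, with a median of -0.33. DNTTIP2, a factor of the small subunit processome, had ratios of 0.37, -0.24, 0.08 and 0.88 with CID661578, 1.82, 1.21, 1.41 and 2.37 with cercosporamide and -0.52 ± 0.72 with DMSO. Its TE difference was -1.44 ± 0.23 (adjusted p 0.00579, negative in 4 of 4 pairs). The kinase RIOK2, which acts on the precursor of the small subunit, was at -1.42 ± 0.25 (adjusted p 0.00685, 4 of 4 pairs negative), nucleolin NCL at -1.0 ± 0.25 (adjusted p 0.0242, 4 of 4 pairs negative), and the methyltransferase FBL, not called, at 0.02 ± 0.28. NHP2, a small protein of box H/ACA particles, was at 0.93 ± 0.27 (adjusted p 0.0468, positive in 3 of 4 pairs) and at -0.25 with partial variance. For biogenesis factors the called counts, CID661578 first, were 1 and 16 without replicate 1, 0 and 10 without replicate 2, 3 and 31 without replicate 3, 2 and 27 without replicate 4, 2 and 30 with DESeq2 and 2 and 38 without the GC trend.

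Spliceosome genes had calls in both directions. Of 51 core snRNP and SF3 proteins, 11 (21.6%, against 7.32% of all genes) were called higher with CID661578, all but SF3B6 being LSM or SNRP genes. Higher with cercosporamide were 6 (11.8%, against 7.18%), all PRPF factors or SF3B1. This split was read after the values were seen and was not tested. The median was 0.18, and 0.06 with 1 and 1 called once the coding length trend was removed. LSM2, a subunit of Sm-like rings, had log2 ratios of -1.71, -1.58, -1.85 and -2.65 with CID661578 and -3.61, -3.08, -3.20 and -3.27 with cercosporamide. There was no overlap, and the TE difference was 1.36 ± 0.26 (adjusted p 0.00987, 4 of 4 pairs). Of 35 hnRNP and SR proteins, which bind nascent RNA, 8 (22.9%, against 7.18% of all genes) were called higher with cercosporamide. With CID661578 0 were (0 at an unadjusted p under 0.05 in edgeR, 0 called by DESeq2), and the median was -0.29. HNRNPH2 was at -1.86 ± 0.52 (adjusted p 0.0427, negative in 4 of 4 pairs). The hnRNP and SR list had 0 and 4 (median -0.32) called once the coding length trend was removed. For snRNP and SF3 proteins the called counts, CID661578 first, were 10 and 2 without replicate 1, 5 and 1 without replicate 2 and 6 and 4 without replicate 4. For hnRNP and SR proteins they were 0 and 3 without replicate 1 and 0 and 2 without replicate 2.

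Of 37 aminoacyl-tRNA synthetases, which charge tRNAs, 8 were called higher with cercosporamide and 0 with CID661578 (0 at an unadjusted p under 0.05 in edgeR, 0 called by DESeq2), with a median of -0.39, and 0 and 3 with a median of -0.10 after removal of the coding length trend. NARS1, which charges asparagine tRNA, had log2 ratios of 0.43, 0.37, 1.15 and 0.86 with CID661578 and 1.99, 2.07, 1.15 and 2.34 with cercosporamide. The compounds met in replicate 3, where both were at 1.15, and the TE difference was -1.19 ± 0.28 (adjusted p 0.019, negative in 3 of 4 pairs). Proteasome subunits and their assembly factors had calls in both directions at shares near those of all genes, with 4 of 49 called higher with CID661578 and 5 higher with cercosporamide, and a median of 0.12 that kept its sign under 16 of 18 alternatives. PSMG3, an assembly chaperone, was at 1.07 ± 0.26 (adjusted p 0.0213, 4 of 4 pairs) and PSMC6, an ATPase of the regulatory particle, at -1.01 ± 0.24 (adjusted p 0.0207, negative in 4 of 4 pairs). All genes had 7.32% and 7.18% called, and with the coding length trend removed 1 and 3 (median -0.01) proteasome genes were. For synthetases the called counts, CID661578 first, were 0 and 5 without replicate 1, 0 and 2 without replicate 2, 0 and 4 without replicate 4, 0 and 15 without the GC trend and 0 and 4 with no block. For proteasome genes they were 2 and 2 without replicate 1, 1 and 1 without replicate 2, 7 and 5 without the GC trend and 2 and 4 with no block.

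Mitosis genes, which encode spindle, kinetochore and condensin proteins, had a higher median with cercosporamide. Of those tested 36.1% were called so, against 7.18% of all genes. Their median log2 ratio was 0.34, 0.07, 0.57 and 0.47 with CID661578, 1.00, 0.74, 0.94 and 1.01 with cercosporamide and 0.03 ± 0.23 with DMSO. The cercosporamide plate was the higher in every replicate. Of 61 tested, 22 were called higher with cercosporamide and 2 higher with CID661578, BIRC5 and UBE2C, named after their values were seen. The median was -0.48, and -0.29 with 0 and 8 called after removal of the coding length trend, when 264 and 270 of all 12144 genes were called. ANLN, the scaffold protein anillin of the cleavage furrow, had ratios of -0.18, -0.30, 0.40 and -0.06 with CID661578, 1.18, 1.24, 1.10 and 1.61 with cercosporamide and -0.66 ± 0.21 with DMSO. The compounds did not overlap, and the TE difference was -1.32 ± 0.25 (adjusted p 0.00817, negative in 4 of 4 pairs). TOP2A, the topoisomerase of chromosome separation, was at -0.88 ± 0.24 (adjusted p 0.0385, 4 of 4 pairs negative) and the condensin subunit SMC2 at -0.95 ± 0.30 (adjusted p 0.0598, 4 of 4 pairs negative). BIRC5, a small subunit of the chromosomal passenger complex, was at 0.78 ± 0.26 (adjusted p 0.0829, 4 of 4 pairs) and at 0.00 with partial variance. In total RNA none of the mitosis genes was called by edgeR, and the median there was 0.03. For mitosis genes the called counts, CID661578 first, were 1 and 9 without replicate 1, 0 and 5 without replicate 2 and 1 and 29 without replicate 3.

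DNA repair genes had 12 of 51 (23.5%, against 7.18% of all genes) called higher with cercosporamide. With CID661578 0 were (0 at an unadjusted p under 0.05 in edgeR, 0 called by DESeq2), and the median was -0.46. After removal of the coding length trend 0 and 7 were called, against 264 and 270 of all 12144 genes, with a median of -0.16. The medians were -0.20 in polysome RNA and 0.21 in total RNA. RECQL, a DNA helicase, had log2 ratios of 0.48, 0.12, 0.39 and 0.48 with CID661578 and 2.33, 1.81, 1.84 and 2.17 with cercosporamide. They were far apart, and the TE difference was -1.70 ± 0.26 (adjusted p 0.00347, negative in 4 of 4 pairs). Of 60 DNA replication genes 8 (13.3%, against 7.18% of all genes) were called higher with cercosporamide and 3 (5%, against 7.32%) with CID661578, with a median of -0.29. ORC3, of the origin recognition complex, was at -1.25 ± 0.24 (adjusted p 0.00817, negative in 4 of 4 pairs), and POLE3, a small subunit of a DNA polymerase, at 1.03 ± 0.25 (adjusted p 0.0224, 4 of 4 pairs). Replication genes had 0 and 1 (median -0.18) called with the coding length trend removed. For repair the called counts, CID661578 first, were 0 and 3 without replicate 1 and 0 and 5 without replicate 2. For replication they were 3 and 3 without replicate 1, 0 and 1 without replicate 2, 7 and 7 with DESeq2, 6 and 16 without the GC trend and 3 and 5 with no block.

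Histone genes had a higher median on polysomes with CID661578, and 28.6% of those tested were called, against 7.32% of all genes. Their median log2 ratio was -0.29, -0.11, -0.44 and -0.75 with CID661578, -1.55, -0.48, -0.96 and -0.57 with cercosporamide and -0.18 ± 0.25 with DMSO. Replicates 1 to 3 were higher with CID661578 and replicate 4 with cercosporamide. Of 42 tested of 80 listed, 12 were called higher with CID661578 and 0 with cercosporamide (0 at an unadjusted p under 0.05 in edgeR, 0 called by DESeq2), and the median was 0.58, or 0.14 with 0 and 0 called after removal of the coding length trend. Histone genes of a cluster share much of their sequence, so single members are uncertain. H2BC11 was at 1.56 ± 0.44 (adjusted p 0.045, 4 of 4 pairs). H2AZ1, a variant with a gene of its own, had ratios of -0.37, 0.37, -0.52 and 0.34 with CID661578 and -1.67, -0.66, -1.12 and 0.04 with cercosporamide. These overlapped between replicates, and the TE difference was 0.80 ± 0.27 (adjusted p 0.0879, 4 of 4 pairs). For histones the called counts, CID661578 first, were 3 and 0 without replicate 1, 1 and 0 without replicate 2 and 3 and 0 with no block.

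Other nuclear and centrosomal lists had negative medians. Zinc finger genes had 8 of 333 called higher with CID661578 and 20 (6.01%) higher with cercosporamide (median -0.27), against 7.32% and 7.18% of all genes. CEP proteins of the centrosome had 0 and 5 of 39 (0% and 12.8%, median -0.39), nucleoporins 0 and 3 of 30 (0% and 10%, median -0.29) and ubiquitin-specific proteases 0 and 4 of 39 (0% and 10.3%, median -0.35). In these last 3 lists edgeR gave 0 genes higher with CID661578 at an unadjusted p under 0.05, and DESeq2 called 0, 0 and 0. Chromatin modifiers had 2 and 7 of 92 called (2.17% and 7.61%), with a median of -0.19 that kept its sign under 16 of 18 alternatives. The medians of CEP proteins were -0.13 in polysome RNA and 0.26 in total RNA, those of the proteases -0.09 and 0.17 and those of chromatin modifiers 0.06 and 0.22. NUP107, a scaffold nucleoporin, had log2 ratios of 0.83, 0.85, 1.19 and 1.71 with CID661578 and 2.78, 2.21, 1.79 and 2.50 with cercosporamide, a TE difference of -1.18 ± 0.26 (adjusted p 0.0158, negative in 4 of 4 pairs). Its plates did not overlap. ZNF143, a transcription factor, was at -1.70 ± 0.40 (adjusted p 0.0209, negative in 4 of 4 pairs), and HDAC3, a histone deacetylase, at 0.95 ± 0.27 (adjusted p 0.0458, 4 of 4 pairs). Once the coding length trend was removed the counts were 9 and 2 (median -0.03) for zinc fingers, 0 and 0 (median -0.19) for CEP proteins, 0 and 1 (median -0.01) for nucleoporins, 0 and 0 (median -0.05) for the proteases and 1 and 1 (median 0.11) for chromatin modifiers. For zinc fingers the called counts, CID661578 first, were 4 and 11 without replicate 1, 4 and 2 without replicate 2, 8 and 12 without replicate 4, 10 and 9 with DESeq2, 16 and 19 without the GC trend and 6 and 8 with no block. For CEP proteins they were 0 and 1 without replicate 1, 0 and 0 without replicate 2 and 0 and 2 with no block. For nucleoporins they were 0 and 1 without replicate 1 and 0 and 1 without replicate 2. For the proteases they were 0 and 0 without replicate 1, 0 and 0 without replicate 2, 1 and 3 without replicate 4, 1 and 4 without the GC trend and 0 and 1 with no block. For chromatin modifiers they were 1 and 1 without replicate 1, 1 and 0 without replicate 2, 0 and 6 without replicate 4 and 1 and 4 with no block.

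**Figure D1:**
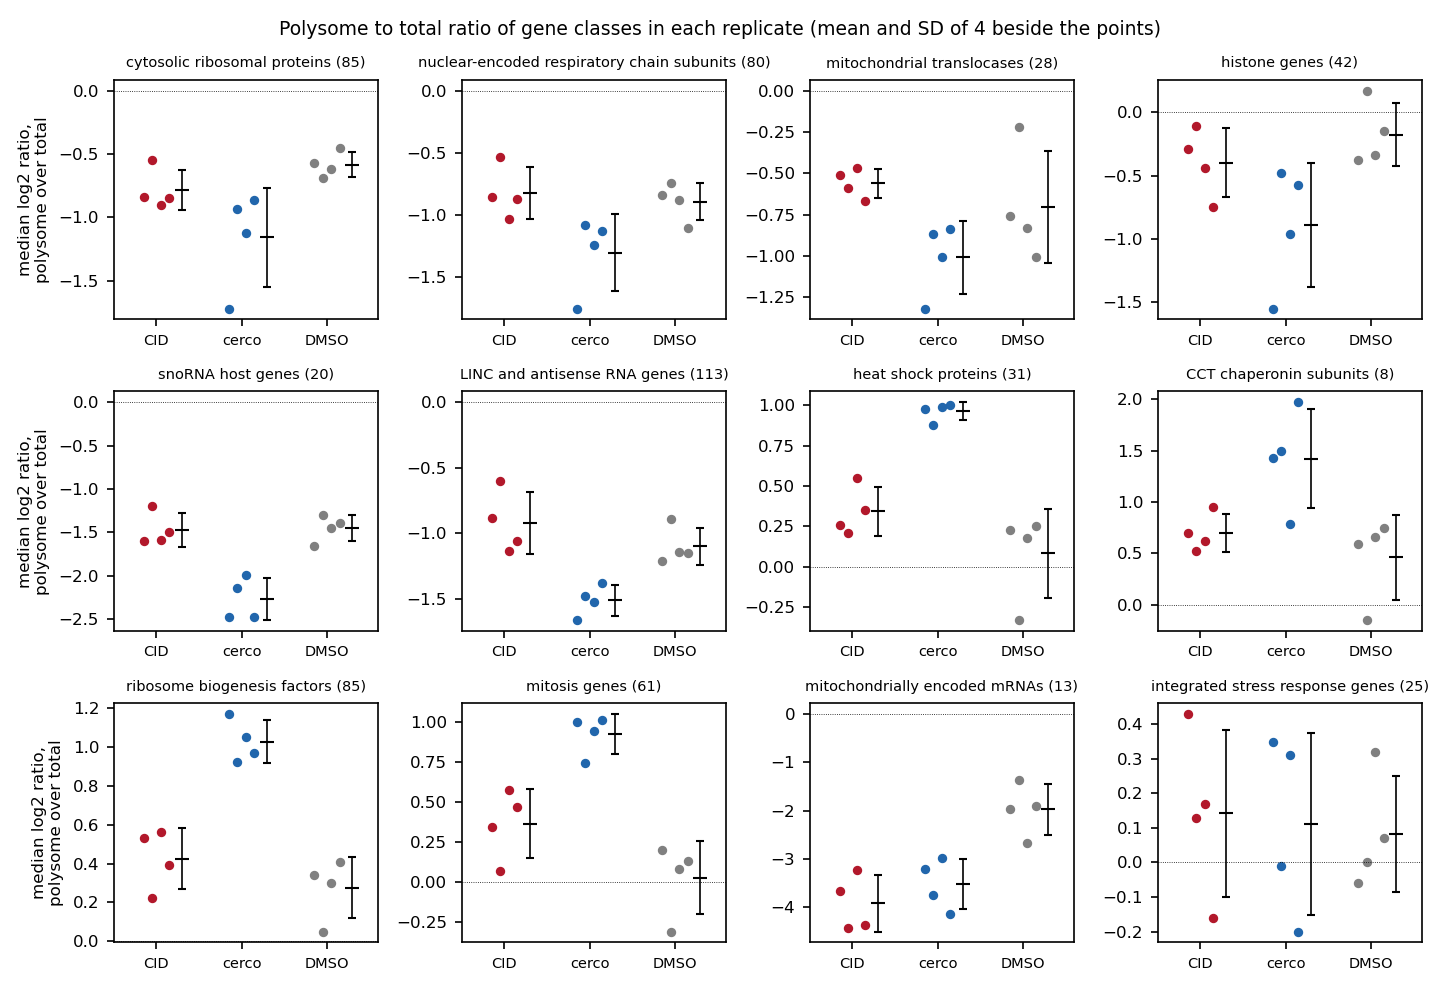
Median log2 ratio of polysome over total (y axis, scaled per panel) of 12 gene classes in each plate of CID661578, cercosporamide and DMSO, with the mean and SD of 4 plates beside the points. For heat shock proteins, whose sign held under all 18 alternatives, every cercosporamide plate lies above the CID661578 and DMSO plates.

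By median TE difference, noncoding RNAs stood highest of the lists on the CID661578 side. The median log2 ratio of snoRNA host genes, whose introns hold small nucleolar RNAs, was -1.60, -1.19, -1.59 and -1.50 with CID661578, -2.47, -2.14, -1.99 and -2.47 with cercosporamide and -1.45 ± 0.15 with DMSO. The compounds did not overlap, and the CID661578 plates were close to the DMSO mean. Of 20 tested, 12 (60%, against 7.32% of all genes) were called higher with CID661578. With cercosporamide 0 were (0 at an unadjusted p under 0.05 in edgeR, 0 called by DESeq2), and the median was 0.82. SNHG29 (chromosome 17, positions 16438987 to 16470648 of GRCh38) had ratios of -1.77, -1.18, -1.80 and -2.15 with CID661578, -3.54, -2.70, -3.06 and -3.24 with cercosporamide and -1.79 ± 0.44 with DMSO. The compounds did not overlap, DMSO lay with CID661578, and the TE difference was 1.47 ± 0.26 (adjusted p 0.00684, 4 of 4 pairs). GAS5, a host of many box C/D snoRNAs, was at 1.35 ± 0.24 (adjusted p 0.00685, 4 of 4 pairs), SNHG32 at 1.33 ± 0.25 (adjusted p 0.00817, 4 of 4 pairs) and ZFAS1 at 0.93 ± 0.25 (adjusted p 0.0331, 4 of 4 pairs). Of 16 hosts with a promoter entry 0 held the pyrimidine run at the annotated start, against 5.36% of all promoters. With so few hosts this count cannot be told apart from that share. A run at a start other than the annotated one would be missed. For the hosts the called counts, CID661578 first, were 4 and 0 without replicate 2.

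LINC and antisense genes had 22 of 113 (19.5%, against 7.32% of all genes) called higher with CID661578. With cercosporamide 0 were (0 at an unadjusted p under 0.05 in edgeR, 0 called by DESeq2), and the median was 0.74. Over all genes annotated as long noncoding RNA, 44 of 196 were called higher with CID661578 and 1 higher with cercosporamide, with a median of 0.73. Over 10128 protein-coding genes the counts were 665 and 810 and the median -0.06. LINC00662 had log2 ratios of -0.63, 0.35, -0.48 and -1.06 with CID661578 and -1.70, -2.0, -2.08 and -1.62 with cercosporamide. These did not overlap, and the TE difference was 1.80 ± 0.43 (adjusted p 0.0222, 4 of 4 pairs). The nuclear RNA MALAT1, the called exception, was at -0.90 ± 0.32 (adjusted p 0.0977, negative in 4 of 4 pairs) with total RNA called higher with CID661578 at 1.55. Counting was unstranded, so antisense genes that overlap a coding gene are uncertain. For LINC and antisense genes the called counts, CID661578 first, were 6 and 1 without replicate 2.

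Genes of matrix contact were called mostly in the direction of cercosporamide. Of 32 collagens, laminins and integrins, 8 were called higher with cercosporamide and 1, ITGAE, higher with CID661578, with a median of -0.60. The medians of the list were -0.14 in polysome RNA and 0.47 in total RNA, and 3 and 5 were called in polysome RNA. ITGB1, the common beta chain of integrins, had log2 ratios of -0.10, 0.30, 0.40 and 0.45 with CID661578, 1.34, 1.27, 0.95 and 2.00 with cercosporamide and -0.09 ± 0.32 with DMSO. CID661578 and DMSO lay together below cercosporamide, and the TE difference was -1.13 ± 0.27 (adjusted p 0.0201, negative in 4 of 4 pairs). ITGAV, an alpha chain that pairs with it, was at -1.24 ± 0.25 (adjusted p 0.0108, 4 of 4 pairs negative). Of 138 solute carriers outside mitochondria 3 (2.17%, against 7.32% of all genes) and 14 (10.1%, against 7.18%) were called. Their list median of -0.16 kept its sign under 16 of 18 alternatives. SLC3A2, the heavy chain of amino acid exchangers, was at -1.21 ± 0.30 (adjusted p 0.0247, 4 of 4 pairs negative). Of 53 lysosome and vacuolar ATPase genes 5 (9.43%) were called higher with CID661578 and 7 (13.2%) higher with cercosporamide, against 7.32% and 7.18% of all genes (median -0.28). ASAH1, the acid ceramidase, was at -1.14 ± 0.35 (adjusted p 0.0585, 4 of 4 pairs negative), and ATP6V0E1, a small subunit of the proton pump, at 0.80 ± 0.28 (adjusted p 0.0925, positive in 3 of 4 pairs) and at -1.22 with partial variance. The median of the solute carriers was positive in 2 of 4 pairs. After removal of the coding length trend the counts were 1 and 2 (median -0.29) for the matrix list, 3 and 6 (median 0.05) for solute carriers and 1 and 2 (median -0.16) for lysosome genes. For the matrix list the called counts, CID661578 first, were 1 and 4 without replicate 1, 1 and 3 without replicate 2, 1 and 5 without replicate 3, 2 and 7 with DESeq2, 2 and 12 without the GC trend and 1 and 4 with no block. For solute carriers they were 1 and 9 without replicate 1, 0 and 6 without replicate 2, 5 and 12 without replicate 3, 1 and 8 without replicate 4, 5 and 10 with DESeq2, 9 and 13 without the GC trend and 1 and 6 with no block. For lysosome genes they were 3 and 3 without replicate 1, 0 and 2 without replicate 2, 3 and 7 without replicate 3, 2 and 2 without replicate 4 and 0 and 3 with no block.

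Of 25 genes of cholesterol synthesis 4 were called higher with cercosporamide and 0 with CID661578 (0 at an unadjusted p under 0.05 in edgeR, 0 called by DESeq2), with a median of -0.18. Of 21 glycolytic enzymes 1 was called, LDHB, a lactate dehydrogenase, at -1.17 ± 0.26 (adjusted p 0.0158, negative in 4 of 4 pairs), with a median of -0.29 for the list (-0.01 in polysome RNA and 0.29 in total RNA). Of 18 selenoproteins 4 were called higher with CID661578 and 2 higher with cercosporamide, with a median of 0.44 that kept its sign under 17 of 18 alternatives and was 0.00 once the coding length trend was removed. GPX4, which reduces lipid peroxides, had ratios of -2.09, -2.44, -2.87 and -3.11 with CID661578 and -3.67, -3.37, -3.29 and -3.57 with cercosporamide. These did not overlap, and the TE difference was 0.85 ± 0.27 (adjusted p 0.06, 4 of 4 pairs). Counts for RAB GTPases were 2 and 0 of 42 (median 0.22, sign kept under 17 of 18), for Mediator 2 and 1 of 31 (0.03, 15 of 18) and for intraflagellar transport 2 and 2 of 20 (-0.13, 13 of 18). As shares these were 4.76% and 0%, 6.45% and 3.23%, and 10% and 10%. All genes had 7.32% and 7.18% called. Counts with the coding length trend removed were 0 and 2 (median -0.10) for cholesterol synthesis, 0 and 1 (median -0.02) for glycolysis, 0 and 0 (median 0.00) for selenoproteins, 0 and 0 (median -0.08) for RAB genes, 0 and 1 (median 0.06) for Mediator and 1 and 0 (median 0.06) for intraflagellar transport. For cholesterol synthesis the called counts, CID661578 first, were 0 and 1 without replicate 1, 0 and 1 without replicate 2, 0 and 2 with DESeq2 and 0 and 2 with no block. For glycolysis they were 0 and 2 without replicate 3, 1 and 1 with DESeq2 and 0 and 7 without the GC trend. For selenoproteins they were 1 and 0 without replicate 1, 0 and 0 without replicate 2, 4 and 1 without replicate 4, 7 and 2 with DESeq2, 8 and 1 without the GC trend and 2 and 0 with no block. For RAB genes they were 0 and 0 without replicate 2, 1 and 0 without replicate 3, 6 and 0 without the GC trend and 1 and 0 with no block. For Mediator they were 2 and 0 without replicate 1, 0 and 0 without replicate 2, 4 and 0 without replicate 3, 2 and 2 without replicate 4, 4 and 1 with DESeq2, 6 and 1 without the GC trend and 1 and 0 with no block. For intraflagellar transport they were 1 and 0 without replicate 1, 1 and 0 without replicate 2, 2 and 1 without replicate 3, 1 and 2 without replicate 4, 3 and 1 with DESeq2, 4 and 1 without the GC trend and 1 and 1 with no block.

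Stress response genes had calls in RNA level, and in the TE difference at shares near those of all genes. The list of the integrated stress response, the program run by ATF4 when initiation is limited, had 14 of 25 genes called higher with CID661578 in polysome RNA (11.9% of all genes) and 7 in total RNA (0.264% of all genes). The medians were 1.03 and 0.86. With no replicate block 1 and 0 were called higher with CID661578, and with a replicate left out 12 to 15 and 5 to 11. The total RNA count was 13 with DESeq2, 13 with limma voom and 15 with the GC trend removed. For the TE difference 2 (8%, against 7.32% of all genes) were called higher with CID661578, ATF4 and CTH. Higher with cercosporamide was 1 (4%, against 7.18%), SLC3A2. The list median of 0.03 kept its sign under 12 of 18 alternatives. ATF4, a transcription factor whose message carries upstream reading frames, had log2 ratios of 0.62, 0.83, 0.27 and -0.68 with CID661578, -1.39, -1.17, -0.22 and -1.09 with cercosporamide and -0.37 ± 0.48 with DMSO. Replicate 4 of CID661578 lay among the cercosporamide plates. The TE difference was 1.25 ± 0.29 (adjusted p 0.0193, 4 of 4 pairs), with differences of 2.25 in polysome and 1.00 in total RNA that were both called. DDIT3, a transcription factor downstream of ATF4, had a total RNA difference of 2.17 and a polysome difference of 2.38, both called, beside a TE difference of 0.25 ± 0.26 that was not. Its total RNA level was 324, 184, 487 and 305 CPM with CID661578, 56, 24.3, 333 and 51 with cercosporamide and 67.2, 46.5, 345 and 58.9 with DMSO, so that replicate 3 stood high in all 3 treatments. TRIB3 (2.11 total, 2.33 polysome), CHAC1 (2.34 total, 2.43 polysome) and SESN2 (2.57 total, 2.35 polysome) went the same way, with TE differences of 0.30, 0.14 and -0.17. The list had 1 and 1 (median 0.03) called with the coding length trend removed. For this list the called counts, CID661578 first, were 1 and 2 without replicate 1, 1 and 1 without replicate 2, 3 and 3 without replicate 3, 1 and 1 without replicate 4, 3 and 2 without the GC trend and 1 and 1 with no block.

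Signalling lists tied to MNK are short, so their TE calls are given beside the 7.32% and 7.18% called over all genes. Genes of ERK feedback and the immediate early response had 0 and 0 of 23 called (1 and 1 at an unadjusted p under 0.05 in edgeR, 0 and 0 by DESeq2) and a median of 0.04, kept in sign under 16 of 18 alternatives. In polysome RNA 8 of them were called higher with CID661578, against 11.9% of all genes. This polysome count was 0 with no replicate block and 4 to 9 with a replicate left out. In total RNA 2 of them, ATF3 and DUSP1, were called higher with CID661578, against 0.264% of all genes. The medians of the list were 0.27 in polysome RNA and 0.38 in total RNA. NF-kB genes and inflammatory targets had 0 and 0 of 20 called (1 and 1 at an unadjusted p under 0.05, 0 and 0 by DESeq2) and a median of -0.02, kept under 8 of 18. CCL2, a chemokine, was called lower with CID661578 in total RNA at -1.03 and in polysome RNA at -0.88, with a TE difference of 0.15 ± 0.25. The list of MYC and survival genes held to depend on eIF4E had 1 (BIRC5, 5.56%) and 2 (CCNE2 and HIF1A, 11.1%) of 18 called. Its median of -0.12 kept its sign under 14 of 18 alternatives. MYC had log2 ratios of 0.28, -0.39, -0.01 and -0.80 with CID661578 and 0.43, -0.53, 0.30 and -0.65 with cercosporamide. They overlapped fully, with a TE difference of -0.12 ± 0.24 (adjusted p 0.832, negative in 3 of 4 pairs). MCL1, a survival protein, was at -0.44 ± 0.24, the cyclin CCND1 at -0.27 ± 0.24 and ODC1, of polyamine synthesis, at 0.35 ± 0.24, none of them called. CCNE2, a cyclin of S phase entry, was at -1.35 ± 0.33 (adjusted p 0.024, negative in 4 of 4 pairs). Called counts without the coding length trend were 0 and 1 (median 0.08) for ERK genes, 0 and 0 (median 0.07) for NF-kB genes and 0 and 1 (median 0.01) for MYC and survival genes. For NF-kB genes the called counts, CID661578 first, were 0 and 1 without replicate 1, 1 and 0 without replicate 3, 1 and 0 without replicate 4 and 1 and 1 without the GC trend. For MYC and survival genes they were 1 and 0 without replicate 1, 0 and 1 without replicate 2, 2 and 3 without replicate 3, 2 and 2 with DESeq2 and 3 and 2 without the GC trend. For ERK genes they were 1 and 0 without replicate 4 and 1 and 3 without the GC trend.

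Identity genes and tubulins had 1 and 0 TE calls in edgeR. Over all genes 7.32% were called higher with CID661578 and 7.18% higher with cercosporamide. In polysome RNA 4 of 10 identity genes and 5 of 13 tubulins were called higher with cercosporamide, against 14.1% of all genes. With no replicate block these polysome counts were 1 and 0. Of 10 tested duct and mesenchymal genes 1 was called, ZEB1, a repressor of epithelial genes, at -1.41 ± 0.37 (adjusted p 0.03, negative in 4 of 4 pairs), with total RNA called higher with CID661578 at 1.39 and a list median of -0.46. The keratin KRT8 was at -0.59 ± 0.32 and not called. Of 13 tubulins 0 and 0 were called (0 and 0 at an unadjusted p under 0.05 in edgeR, 0 and 0 by DESeq2), with a median of -0.25. TUBB, the member with the highest CPM, had log2 ratios of 1.35, 0.72, 0.93 and 0.27 with CID661578 and 0.84, 0.93, 0.85 and 1.27 with cercosporamide. These overlapped, with a TE difference of -0.15 ± 0.32. Among markers of other cell types COL1A1 alone passed the filter, at -0.12 ± 0.58 and not called. Without the coding length trend the identity list had 0 and 1 (median -0.28) called and tubulins 0 and 0 (median -0.09). For the identity list the called counts, CID661578 first, were 0 and 0 without replicate 2, 1 and 1 without replicate 3, 1 and 3 with DESeq2 and 1 and 5 without the GC trend. For tubulins they were 0 and 2 without the GC trend.

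Large single differences lay both inside and outside the lists. Called genes were ranked where their average log2 CPM was 3 or more and all 4 pairs shared a sign. The 10 most positive were the mitochondrial rRNA sequences RNR2, MTRNR2L1, MTRNR2L2, MTRNR2L8, MTRNR2L9 and MTRNR2L12, the pseudogenes DYNLL1P2 (1.67) and RPS28P9 (1.72), LINC00662 and PDE6D. The pseudogenes share sequence with their parent genes and are uncertain. PDE6D, a carrier of lipid-modified proteins (chromosome 2, positions 231732433 to 231781282 of GRCh38), had log2 ratios of -1.68, -0.52, -1.05 and -0.62 with CID661578, -3.06, -2.48, -2.35 and -2.55 with cercosporamide and -1.36 ± 0.22 with DMSO. The plates did not overlap, and the TE difference was 1.67 ± 0.28 (adjusted p 0.00579, 4 of 4 pairs). MT1X, a metal-binding metallothionein named after its values were seen, was at 1.53 ± 0.30 (adjusted p 0.00959, 4 of 4 pairs).

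The 10 most negative were TPP2, ZSCAN26, CEBPZ, ND5, RECQL, ZNF143, PNN, EDRF1, ZMYM6 and ARMT1. CEBPZ, a nucleolar protein named for CCAAT binding (chromosome 2, positions 37201612 to 37231596 of GRCh38), had log2 ratios of 0.10, -0.15, 0.14 and -0.25 with CID661578, 2.01, 1.71, 1.48 and 1.81 with cercosporamide and -0.45 ± 0.55 with DMSO. Each cercosporamide plate was above every CID661578 plate by more than the spread within either group, and the TE difference was -1.81 ± 0.26 (adjusted p 0.00215, negative in 4 of 4 pairs). TPP2, a large cytosolic peptidase, was at -1.98 ± 0.42 (adjusted p 0.014) and the zinc finger gene ZSCAN26 at -1.99 ± 0.40 (adjusted p 0.0108), both negative in 4 of 4 pairs. PNN, a nuclear protein of splicing speckles, was at -1.69 ± 0.34 (adjusted p 0.0108, 4 of 4 pairs negative). EDRF1, ZMYM6 and ARMT1 were at -1.69, -1.65 and -1.63. Over the alternatives the TE difference of CEBPZ ran from -1.96 to -1.43 and that of PDE6D from 1.18 to 1.88, with the sign kept.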

How the data were processed

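RNA was measured in 24 libraries, total and polysome-associated RNA of 12 plates. The authors used BBDuk against rRNA reads, HISAT2 for alignment to hg38 and featureCounts of RSubread for RefSeq genes at its defaults, which are unstranded and count multi-mapping reads. The deposited values are the count of reads per gene, a count table with whole numbers and no normalization. Between replicates the chi-square per degree of freedom was at least 13.3, so no library is a copy of another in its group.

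Genes with no 0 in the 16 libraries were fitted with edgeR 4.0.16 in R 4.3.3 (TMM, quasi-likelihood F test, Benjamini-Hochberg over 12144 genes), with a term per plate, a polysome term per replicate and the tested polysome by compound term. Residual degrees of freedom were 3, prior degrees 20 and the biological coefficient of variation 0.221. Each fraction was fitted alone with replicate as block (coefficients 0.197 for polysome and 0.286 for total RNA). The study's methods name the replicate as batch, and pairing rests on that. Checked across genes, deviations from the group mean correlated between same-numbered libraries of the compounds at 0.30, 0.62, 0.41 and 0.34 in polysome RNA, 0.05, 0.62, 0.42 and 0.05 in total RNA and 0.11, 0.11, 0.02 and 0.21 in the ratio. With no replicate block 516 and 489 genes were called.

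Log2 ratios used CPM with 0.5 added. Alternatives used DESeq2 1.42.0 and limma 3.58.1, other scalings and filters, trends along GC content and length removed by loess (span 0.3), and each replicate left out. The fit was also run on simulated data, whose outcome is not given here and is not used for any result. Transcript features came from GENCODE 44, for 96% of tested genes, and promoters from RefSeq. Tables and figures used Python 3.11.15, numpy 2.4.6, pandas 2.3.3 and matplotlib 3.10.9.

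Members and the 43 lists were chosen with earlier results of these data known. Some lists share members. The pattern of the hnRNP list was replaced by explicit symbols after it had matched pseudogenes. Named were the 10 largest TE differences in each direction out of the 1323 called genes whose average log2 CPM was 3 or more and whose 4 pairs shared a sign, the tested eIF4F, MNK and 4E-BP genes, the mitochondrial mRNAs, and in each list the called members with the most positive and the most negative difference and the member with the highest CPM. Any other gene was chosen for mention after values were seen.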

Additional observations from a re-analysis of the deposited data

Results flagged for a closer look

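Among 98 groups of 4 replicates, 4 held a replicate whose gap to its nearest neighbour was large against the range of its group, and chance alone gives about 1 in 20. The polysome library of cercosporamide replicate 4 held 1592459 reads on genes, far below the others. Mitochondrial genes took 11.7% of the reads (95% Wilson interval 11.65% to 11.69%) in total RNA of cercosporamide replicate 2, above the other cercosporamide totals. The median log2 ratio of polysome over total of heat shock proteins was 0.88 in cercosporamide replicate 2, apart from the other cercosporamide plates. The median ratio of chromatin modifiers was 0.55 in CID661578 replicate 2, apart from the other CID661578 plates.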

How the results depend on the processing

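Beside 889 genes called higher with CID661578 and 872 higher with cercosporamide, the counts were 516 and 489 with no replicate block, 0 and 0 with no plate or replicate terms in edgeR (739 and 590 at an unadjusted p under 0.05), 0 and 0 with partial variance in limma (1004 and 1131), 1349 and 1368 with limma voom, 1378 and 1059 with the GC trend removed, 719 and 579 with the transcript length trend removed, 796 and 520 with no filter, 310 and 274 at an adjusted p below 0.05, and 264 and 270 with the coding length trend removed, an alternative chosen after seeing the data. Leaving out each replicate gave 218 to 1021 and 175 to 975. List medians moved with the replicates as well. Beside -0.46 the mitochondrial mRNAs were at -0.25 without replicate 1, and beside -0.35 the ubiquitin-specific proteases at -0.10 without replicate 4. Beside 0.18 the snRNP and SF3 proteins were at 0.10 without replicate 2, and beside -0.29 the hnRNP and SR proteins at -0.16 without replicate 1. The polysome count of 3148 was 163 with no block, 1666 at an adjusted p below 0.05 and 1580 to 2823 with a replicate left out. The total RNA count of 54 was 2 with no block, 161 with DESeq2, 173 with no filter, 194 with limma voom, 748 with the GC trend removed, 26 at an adjusted p below 0.05 and 18 to 153 with a replicate left out. Signs turned with the coding length trend removed for the medians of selenoproteins (0.00) and of lists nearer 0 (mitochondrial ribosomal proteins -0.04, RAB GTPases -0.08, chromatin modifiers 0.11, solute carriers 0.05, proteasome -0.01, eIF4F 0.18, intraflagellar transport 0.06, NF-kB 0.07, MYC and survival 0.01), and for ATP5ME (-0.01), RPL41 (-0.44), RPS29 (-0.18), TIMM10 (0.00), TOMM5 (-0.03), TOMM7 (-0.10) and UQCRH (-0.02). With partial variance they turned for ATP6V0E1 (-1.22), BIRC5 (0.00), CNTRL (0.86), EIF4EBP2 (-0.10) and NHP2 (-0.25). The cause was not tested. Over the named genes, 3043 values under alternatives kept direction and side of the threshold, 558 kept direction only, 57 newly passed, 111 changed direction with no call on either side and 12 changed direction with a call on a side. The library of 1592459 reads limits genes with low counts, and 4 replicates limit small differences.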

Other observations

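Some transfer RNAs of the mitochondrial genome had wide differences in RNA level. TRNP, the proline tRNA, was called lower with CID661578 in total RNA, at -4.47, and in polysome RNA, at -3.0, with a TE difference of 1.61 ± 0.40 (adjusted p 0.0251, positive in 4 of 4 pairs). Its mean level in total RNA was 23.6 ± 12.7 CPM with CID661578, 511 ± 253 with cercosporamide and 287 ± 142 with DMSO (SD, n = 4). TRNE, the glutamate tRNA, was called higher with CID661578 in both, at 2.05 and 2.03, with a TE difference of -0.09 ± 0.40 that was not called. Library preparation by Smart-seq2 primes on poly(A), so these reads are no measure of mature tRNA. ANGPTL4, a secreted regulator of lipid metabolism named after its values were seen, was called higher with CID661578 in total RNA, at 2.68, and in polysome RNA, at 1.70, and lower for the TE difference, at -0.98 (adjusted p 0.0528, positive in 0 of 4 pairs).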
